A study of Triticum aestivum with 14 samples.

Results

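The auxin response factor (ARF) genes of wheat (Triticum aestivum) were taken as every row of the deposited expression table whose description contains the words auxin response factor, which gave 67 of 100591 genes. The table was made by bulk RNA-seq of 14 libraries from central spikelets of untreated plants, all taken on day 21 counted from the terminal spikelet stage. There were 5 labelled groups: Ovary, Anther and Lemma, which are floret organs with 3, 3 and 2 libraries, and the floret samples F1 and F5 with 3 libraries each. By its design text the study sets fertile against abortive florets and asks what lemma, anther and ovary do within a fertile floret, but the labels do not say which of F1 and F5 was fertile. No genotype beyond the species is used here, and the labels do not say whether replicates were separate plants, so p-values reflect how far these samples spread, and part of that may be technical.

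ARFs are transcription factors that bind auxin response elements in the promoters of auxin-responsive genes. When auxin is low, Aux/IAA proteins bind ARFs and hold their targets down, and auxin brings Aux/IAA proteins to receptors of the TIR1 type, which send them for degradation. In Arabidopsis some ARFs activate and others repress transcription, and family members are needed for the growth of the gynoecium, the stamens and other floral organs. The description of each of the 67 wheat genes is the family name with no number after it, so no gene could be tied to a numbered rice or Arabidopsis ARF, to an activator or repressor class, or to a small RNA that targets it.

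Beyond the description, 64 of the 67 genes carried the orthology entry for ARFs, and the other 3 were TraesCS7A02G475600, TraesCS7A02G475700 and TraesCS7D02G463000. All 67 carried the ontology terms DNA binding, nucleus and response to hormone, 56 carried the term for auxin-activated signalling and 49 that for protein binding. Another 7 genes of the table carried the ARF orthology entry without the description and are not members. Bread wheat holds an A, a B and a D subgenome, and 23 members lay on A, 21 on B and 23 on D chromosomes. Chromosome group 7 held 18 members, group 3 held 15, group 2 held 13, groups 1 and 6 held 9 each, group 5 held 3 and group 4 held 0. Gene spans ran from 1199 to 11512 bases with a median of 5750. Positions are those of the deposited table, and the genome build behind them is not given in the sources used here.

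Copies of one gene on the A, B and D chromosomes (homoeologs) were matched by the annotations of their neighbouring genes, which gave 20 sets with 3 copies, 1 set with 2 copies and 5 genes without a partner. A set is named here by its chromosome group and a letter in order along the chromosome, so that set 3a is the first on group 3. Homoeologs are similar in sequence, and the sources used here do not say how a read that matched more than 1 copy was counted, so the split of reads between the copies of a set is less certain than their sum. The members TraesCS1D02G337400, TraesCS6A02G113000 and TraesCS6D02G102300 overlap a gene on the opposite strand, and whether counting used the strand is not stated.

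Libraries held 75016595 to 105526441 counts. F1 replicate 1 differed more from the other F1 libraries (chi-square per degree of freedom 79.0 and 106) than these did from each other (40.8). Results that change without F1 replicate 1 are given with the value. Ovary replicate 3 also stood apart from the other Ovary libraries (96.4 and 79.3, against 31.4 between these). F5 replicate 3 did so less (64.2 and 53.5, against 38.2). The labelled organs were checked against marker genes. The summed counts of 90 chlorophyll a-b binding protein genes, which mark green tissue, were 14973 to 18510 CPM (counts scaled to library size) in Lemma, against 651 to 926 in Anther and 501 to 567 in Ovary. The 2 genes whose descriptions name pollen summed to 8.91 to 23.4 CPM in Anther and to at most 0.154 in any other group, with 1 of the 2 at 0 in every Anther library. No description matched the carpel and ovule patterns, so Ovary was not checked with markers of its own. The 470 core histone genes, which are highly transcribed in dividing cells, summed to 15488 to 19830 CPM in Ovary, 5463 to 7574 in F1, 1933 to 1995 in Anther, 1323 to 1379 in F5 and 848 to 1051 in Lemma.

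By deposited FPKM, the family was most abundant in Ovary. Summed over the 67 members, FPKM (fragments scaled to gene-model length and library size, as deposited by the authors) was 752 to 794 in Ovary, against 409 to 477 in Lemma, 395 to 494 in F1, 333 to 357 in F5 and 329 to 346 in Anther. On this scale the Ovary libraries stood above all others, and F5 did not overlap F1. The fits below also divide each library by a TMM factor. This factor was 1.2 to 1.278 in Ovary, 0.7792 and 0.792 in Lemma, 1.071 to 1.173 in F1 and 0.8892 to 0.9064 in F5. Ovary and Lemma are therefore closer on that scale. F1 and F5 overlap on it, since the lowest F1 sum would fall below the highest F5 sum. No other sum was made on it. The median member was at 7.77 FPKM in Ovary, 3.73 in Anther, 3.41 in F1, 2.87 in Lemma and 2.82 in F5. By mean FPKM, 44 members were highest in Ovary, 10 in Anther, 6 in Lemma, 5 in F5 and 2 in F1, and none was lowest in Ovary. Among all 72130 genes with a mean of at least 0.1 FPKM, 32.4% were highest in Ovary, 24% in Anther, 18.2% in F5, 15.2% in Lemma and 10.2% in F1. In bulk samples, fewer cells of a type and less RNA per cell cannot be told apart, and this holds for every level below.

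**Figure D1:**
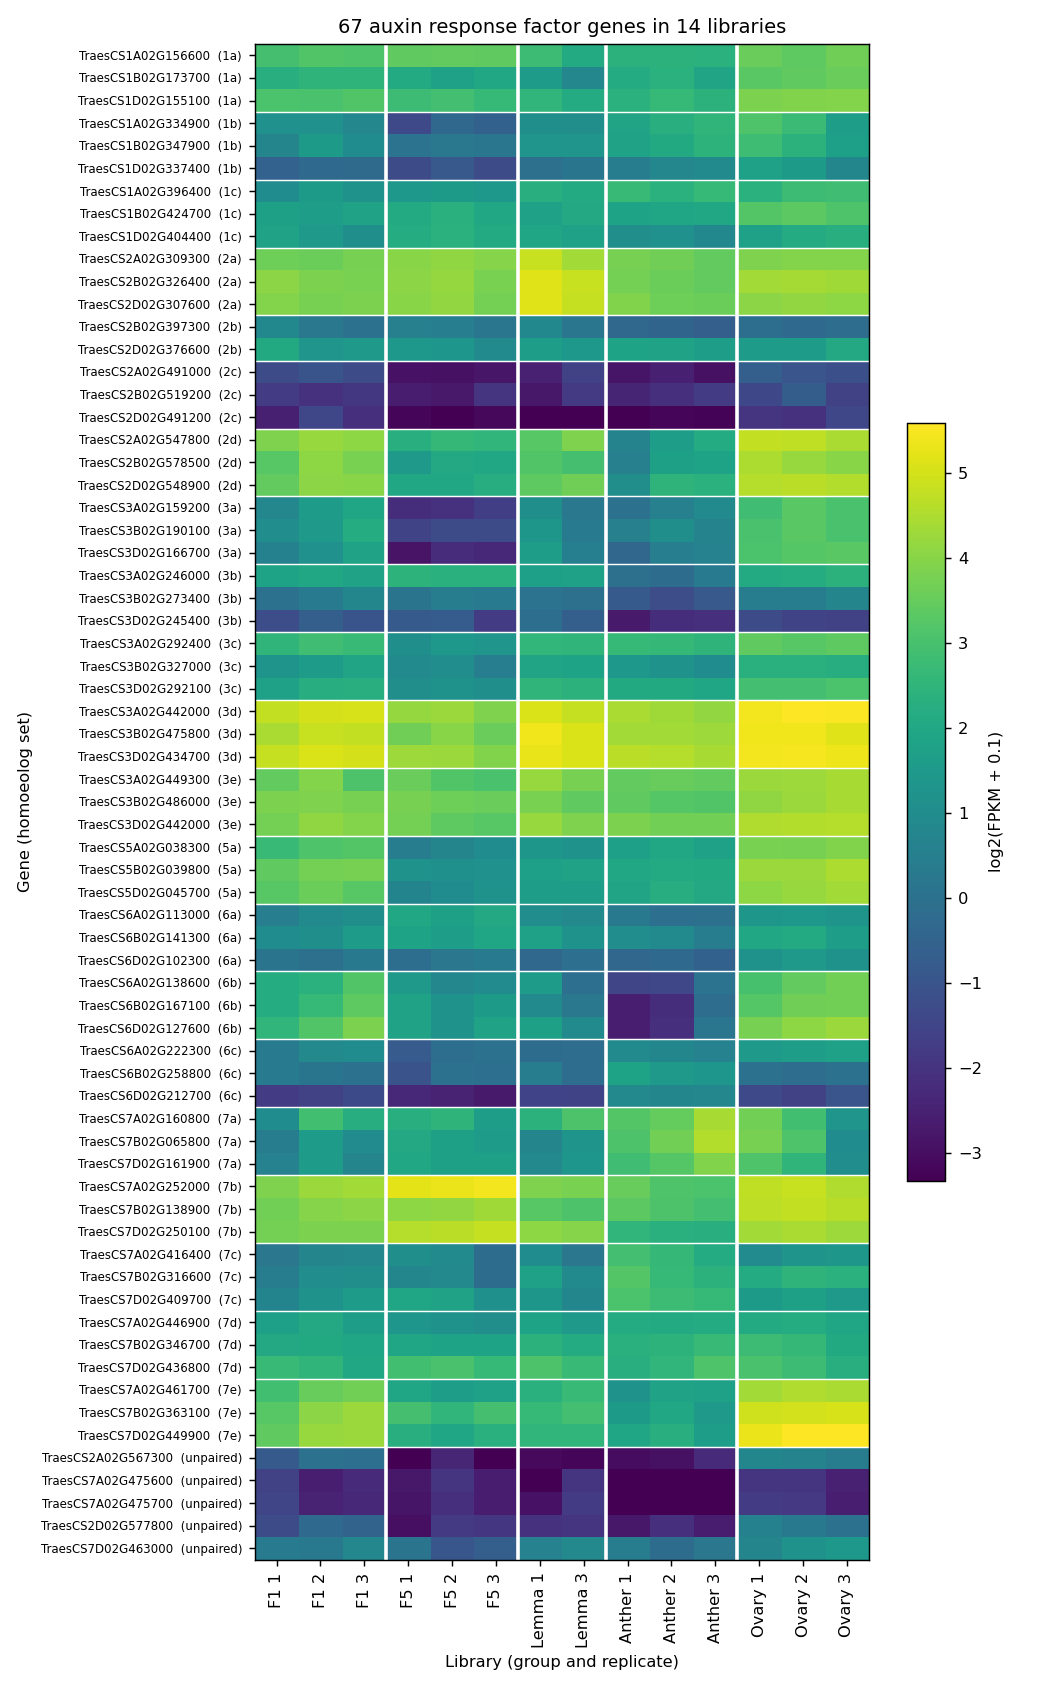
Level of each of the 67 ARF genes (rows, ordered by homoeolog set) in each of the 14 libraries (columns), as log2(FPKM + 0.1). White lines divide sets and groups. The Ovary columns are the brightest for 44 of the 67 genes by group mean, and set 3d holds the highest levels.

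Levels differed widely among members. The mean over the 5 group means ran from 0.0729 to 30.3 FPKM with a median of 4.63, and 58 members reached 1 FPKM, 29 reached 5, 16 reached 10 and 4 reached 20. The 3 highest were the copies of set 3d, which together made up 19.1% of the family's FPKM in F1, 24.1% in F5, 24% in Lemma, 18.9% in Anther and 17.3% in Ovary. TraesCS3D02G434700, on chromosome 3D from 547298032 to 547302973, was at 27.6, 33.6 and 32.4 FPKM in F1, 19.3, 18.9 and 14.8 in F5, 38.8 and 33.6 in Lemma, 25.2, 23.9 and 21.5 in Anther, and 43.1, 43.8 and 41.5 in Ovary. TraesCS3A02G442000 ran from 14.3 FPKM in an F5 library to 48.1 in an Ovary library. TraesCS3B02G475800 ran from 11.6 in an F5 library to 42.5 in a Lemma library. All 3 copies were lower in every F5 library than in any F1 library. Their fitted log2 changes from F1 to F5 lay between -0.68 and -0.56, under the 2-fold needed for a call, with adjusted p from 0.0188 to 0.0275 (edgeR quasi-likelihood test, Benjamini-Hochberg adjusted over all genes).

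At the other end, 9 members were under 1 FPKM by the mean over the 5 group means. TraesCS2D02G491200 had 0 counts in both Lemma libraries, and TraesCS7A02G475600 and TraesCS7A02G475700, which lie near each other on chromosome 7A, had 0 counts in all 3 Anther libraries. With 3 counts assumed over the group at 0 and scaling by library size alone, the first was at least 55.1-fold higher in Ovary than in Lemma. The others were at least 15.1-fold and 21.6-fold higher in Ovary than in Anther. These bounds cover counting error only, and the highest library of these 3 genes reached 0.277 FPKM. They would be lower with the TMM factors, which were higher in Ovary than in Lemma or Anther.

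F1 and F5 were compared to ask how the floret types differ. More ARF genes were lower than higher in F5. Of the 67 members, all of which passed the filter on low counts, 18 fell and 5 rose in F5 by 2-fold or more with an adjusted p under 0.05. That is 34.3% of the members, where 24.1% of all 70221 genes tested were called. By direction, 26.9% of members fell against 13.7% of all genes, and 7.46% rose against 10.4%. The median log2 fold change was -0.42 over the members and -0.05 over all genes tested, and 42 of the 67 members had a negative value. A further 13 members had an adjusted p under 0.05 but changed less than 2-fold. The median of the members was -0.22 without F1 replicate 1, with 4 higher and 19 lower. The split of calls depended on the scaling. With counts scaled by library size alone, 2 members were higher and 25 lower. Of all 70221 genes, 4873 were then higher and 13794 lower, against 7332 and 9626 in the fit reported. With limma on log2(FPKM + 1), 1 member was higher and 15 lower, and 3348 and 5833 of all genes were.

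Set 3a fell strongly in all 3 copies. TraesCS3A02G159200, on chromosome 3A from 158467595 to 158471848, was at 1.66, 2.91 and 3.70 FPKM in F1 and 0.125, 0.138 and 0.213 in F5, and fell by 3.82 on the log2 scale (SE 0.38, adjusted p = 0.00104 by edgeR). TraesCS3B02G190100 was at 1.96, 2.72 and 4.52 FPKM in F1 and 0.255, 0.318 and 0.322 in F5, and fell by 3.07 (SE 0.32, adjusted p = 0.00128 by edgeR). TraesCS3D02G166700 was at 1.41, 2.20 and 3.42 FPKM in F1 and 0.0388, 0.120 and 0.105 in F5, and fell by 4.43 (SE 0.52, adjusted p = 0.00176 by edgeR). Every F5 library lay below every F1 library for each copy, and the F1 libraries spread about as far among themselves for all of them, with replicate 1 the lowest and replicate 3 the highest. In the organs the same copies were at 7.18 to 9.84 FPKM in Ovary and at 0.674 to 3.07 in Lemma and Anther.

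Set 5a fell with less spread and from a higher level. TraesCS5B02G039800, on chromosome 5B from 44776428 to 44782874, was at 10.7, 13.1 and 13.5 FPKM in F1 and 2.25, 2.13 and 2.16 in F5, a fall of 2.24 on the log2 scale (SE 0.13, adjusted p = 0.000276 by edgeR). Its A and D copies, TraesCS5A02G038300 and TraesCS5D02G045700, fell by 2.09 and 2.18, from 8.12 ± 1.38 and 10.3 ± 1.29 FPKM in F1 to 1.58 ± 0.313 and 1.89 ± 0.384 in F5 (SD, n = 3). Over the 3 copies, F5 libraries were at 1.28 to 2.27 FPKM and Lemma libraries at 2.27 to 3.39. F1 libraries, at 6.55 to 13.5 FPKM, lay between Lemma and Ovary, where the copies were at 13.6 to 22.5.

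Sets 2d and 6b also fell in all 3 copies. In set 2d the copies were at 9.58 to 18.3 FPKM in F1 and at 2.75 to 6.07 in F5, and fell by 1.32 to 1.62 on the log2 scale. In set 6b they were at 4.43 to 14.3 FPKM in F1 and at 1.66 to 3.44 in F5, and fell by 1.03 to 1.38, with F1 replicate 3 the highest library for each copy. The set 6b calls were the least firm, since each copy lost its call without at least 1 of the F5 libraries and the A and B copies also without F1 replicate 3. Set 7e fell in its A and D copies, from 7.25 to 12.8 and 10.6 to 19.1 FPKM in F1 to 3.04 to 3.81 and 3.80 to 4.93 in F5, while its B copy, TraesCS7B02G363100, had a log2 change of -0.81 (SE 0.25, adjusted p = 0.0447 by edgeR) and was not called. The remaining falls were TraesCS1A02G334900 of set 1b, TraesCS3A02G292400 of set 3c, and TraesCS2A02G491000 and TraesCS2D02G491200 of set 2c.

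The set 2c genes were near the limit of detection. TraesCS2A02G491000 was at 0.314, 0.398 and 0.321 FPKM in F1 and at 0.0348, 0.0305 and 0.0447 in F5, and fell by 2.93 (SE 0.40, adjusted p = 0.00291 by edgeR). TraesCS2D02G491200 had 171 counts over the F1 libraries and 12 over the F5 libraries, and fell by 3.86 (SE 1.10, adjusted p = 0.0342 by edgeR). Its call was lost without F1 replicate 2 or 3 and without F5 replicate 1 or 3, at values from -4.54 to -3.2.

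Fewer members rose in F5, and the largest rise was in a gene that was already abundant. TraesCS7A02G252000 of set 7b, on chromosome 7A from 236611658 to 236620693, was at 14.6, 18.7 and 20.3 FPKM in F1 and at 37.4, 40.0 and 42.8 in F5, a rise of 1.44 on the log2 scale (SE 0.16, adjusted p = 0.0015 by edgeR). Every F5 library was also above every Ovary library, the next highest group at 23.0 to 28.5 FPKM. Its D copy, TraesCS7D02G250100, rose by 1.16 (SE 0.13, adjusted p = 0.00152 by edgeR), from 13.8 ± 0.71 to 25.7 ± 1.76 FPKM (SD, n = 3). The B copy, TraesCS7B02G138900, was at 12.8, 15.7 and 16.5 FPKM in F1 and 16.6, 17.5 and 19.9 in F5, with a log2 change of 0.53 (SE 0.15, adjusted p = 0.0295 by edgeR), under the 2-fold needed. TraesCS6A02G113000 of set 6a was at 1.31, 1.83 and 2.07 FPKM in F1 and at 3.96, 3.29 and 4.04 in F5, and rose by 1.39 (SE 0.19, adjusted p = 0.0028 by edgeR).

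The remaining rises were smaller and less firm. TraesCS7D02G161900 of set 7a was at 1.44, 2.94 and 1.56 FPKM in F1 and at 3.98, 3.26 and 3.21 in F5, and rose by 1.08 (SE 0.30, adjusted p = 0.0307 by edgeR). TraesCS1D02G404400 of set 1c was at 3.38, 2.67 and 2.09 FPKM in F1 and at 4.50, 5.02 and 4.28 in F5, and rose by 1.01 (SE 0.22, adjusted p = 0.0129 by edgeR). The groups did not overlap for either gene. The first lost its call without any 1 of F1 replicates 1 and 3 and the 3 F5 libraries, at values from 0.91 to 1.14, and the second without F1 replicate 3 (0.83) or F5 replicate 2 (0.97). Only TraesCS7A02G252000 kept its call under every alternative tried.

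**Figure D2:**
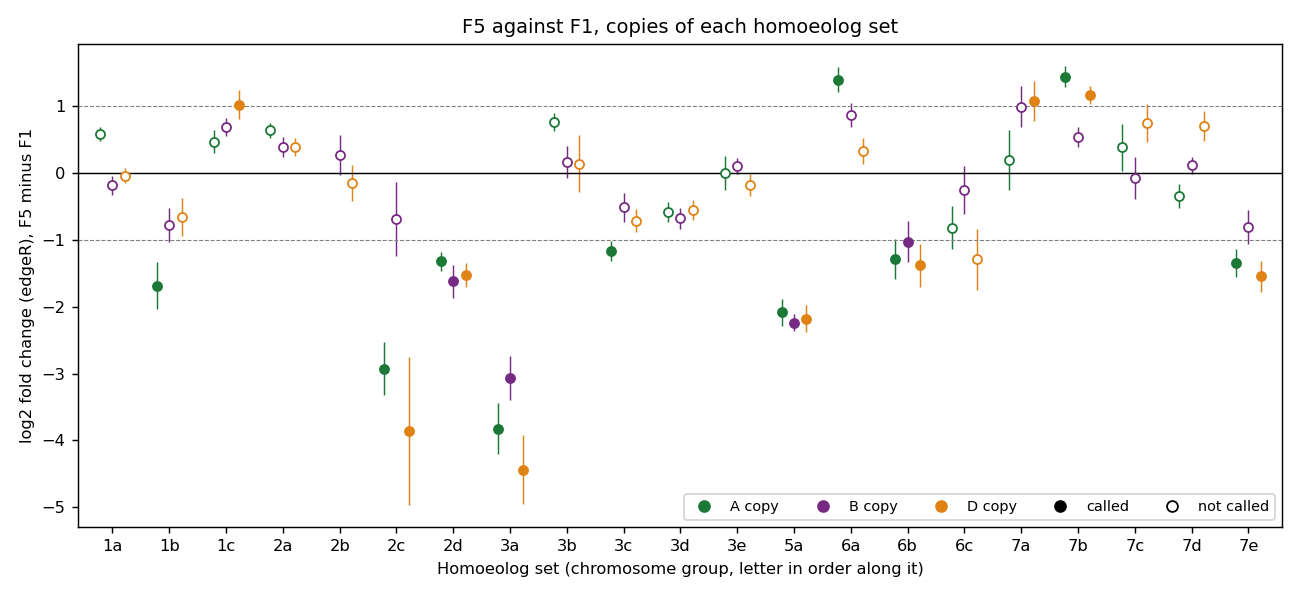
Fitted log2 fold change of F5 minus F1 for each copy of the 21 homoeolog sets (horizontal axis), with its SE as a vertical line. Filled points passed an adjusted p under 0.05 and 2-fold (dashed lines). Sets 2d, 3a, 5a and 6b have 3 filled points below 0, and no set has 3 above it.

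All 18 members that fell in F5 had their highest mean FPKM in Ovary. Of these, 16 were called lower in Anther than in Ovary and 9 were called higher in Ovary than in Lemma. Of the 5 that rose, 0 were highest in Ovary, and of the 44 not called in F5, 26 were. Among all genes at 0.1 FPKM or more, 32.4% were highest in Ovary. Of all genes tested, 21.7% were lower in Anther than in Ovary and 20.4% higher in Ovary than in Lemma. The joint counts were not made for all genes that fell in F5, so whether they are particular to ARF genes was not tested. Histone genes also fell, at 5463 to 7574 CPM in F1 and 1323 to 1379 in F5. Of 437 histone genes tested 398 fell (91.1%, against 13.7% of all genes) and 0 rose in F5. Chlorophyll a-b binding genes moved the other way, with a median log2 change of 0.92. Of 86 tested genes 24 were higher (27.9%, against 10.4% of all genes) and 0 lower in F5. The chlorophyll a-b binding genes summed to 20741, 12647 and 8521 CPM in F1 replicates 1 to 3 and to 17764 to 20985 in F5, so that F1 replicate 1 alone lay within the F5 range. The part of either marker list in the ARF result was not tested.

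Calls among other auxin genes differed in direction between lists. The share called in each list is set beside 24.1% of all genes tested, by direction 10.4% higher and 13.7% lower in F5. Description patterns for Aux/IAA, receptor and SAUR genes matched 0 genes, so these lists were taken from orthology entries, a choice made after the annotation was seen. Of 65 tested Aux/IAA genes, which encode the repressors that bind ARFs, 9 rose and 9 fell in F5 (27.7% called), with a median log2 change of 0.07. Of 17 genes for TIR1-type auxin receptors, 5 rose and 0 fell (29.4% called), with a median of 0.77. The 5 were TraesCS6B02G345800, TraesCS1A02G091300, TraesCS6A02G315300, TraesCS4D02G301800 and TraesCS2A02G286200, and they are named after their values were seen. The first of them, with the largest rise, went from 7.84 ± 1.49 to 17.6 ± 0.958 FPKM (SD, n = 3), a log2 change of 1.44 (SE 0.15, adjusted p = 0.00114 by edgeR).

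Of 130 tested SAUR genes, which are early auxin-responsive genes, 20 rose and 6 fell in F5 (20% called), with a median of 0.50. Of 20 GH3 genes, whose products join auxin and related hormones to amino acids, 4 rose and 7 fell (55% called). Among 27 auxin efflux carriers 3 rose and 6 fell (33.3% called) with a median of -0.40, and among 11 influx carriers 2 rose and 0 fell (18.2% called). Efflux carrier TraesCS7A02G190600, also named after its values were seen, fell from 6.82 ± 0.642 to 0.759 ± 0.204 FPKM (SD, n = 3), a fall of 2.90 on the log2 scale (SE 0.25, adjusted p = 0.000693 by edgeR). Of 3 tryptophan aminotransferase related genes, which act in auxin synthesis, 0 rose and 1 fell (33.3% called).

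The organ comparisons address how lemma, anther and ovary differ within a floret. ARF genes were lower in Anther than in Ovary more often than higher. Of the 67 members 29 were lower and 4 higher in Anther, 49.3% in all, where 43.5% of all 76348 genes tested were called. By direction, 43.3% of members were lower against 21.7% of all genes and 5.97% higher against 21.9%, and the median log2 change was -0.83 against -0.03 over all genes. Between Ovary and Lemma, 15 members were higher and 5 lower in Ovary, 29.9% against 42.7% of all genes, by direction 22.4% against 20.4% and 7.46% against 22.4%, with a median of 0.26 against 0.05. Between Anther and Lemma, 7 members were higher and 23 lower in Anther, 44.8% against 51.9% of all genes, by direction 10.4% against 25.2% and 34.3% against 26.7%, with a median of -0.57 against 0.02.

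The splits against Lemma depended on how libraries were scaled. With counts scaled by library size alone, 29 members were higher and 1 lower in Ovary than in Lemma. In Anther against Lemma, 9 were higher and 15 lower. With limma on log2(FPKM + 1) the counts were 22 and 0, and 6 and 8. Calls over all 76348 genes moved as well. For Ovary against Lemma 15550 were higher and 17069 lower in the fit reported. With library size alone these were 26767 and 13089, and with limma 14863 and 9020. For Anther against Lemma they were 19240 and 20349, then 22504 and 17984, and 12239 and 11632. Deposited FPKM follows library size, and for the median member the log2 ratio of FPKM differed from the fitted change by 0.62 for Ovary against Lemma, 0.24 for Anther against Lemma, -0.38 for Anther against Ovary and -0.27 for F5 against F1. Set 3d was thus above Lemma in Ovary by mean FPKM in all 3 copies, while its fitted log2 changes were -0.05, -0.54 and -0.38. The number higher in Anther than in Lemma also fell from 7 to 3 without Lemma replicate 3.

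Calling a member enriched in an organ when it was higher there than in both other organs, 13 members (19.4%) were enriched in Ovary, 5 (7.46%) in Lemma and 4 (5.97%) in Anther, where 9.55%, 16.8% and 14.3% of all genes tested were. Scaled by library size alone, the numbers were 24, 1 and 4, and the shares of all genes were not counted under that scaling. The 13 Ovary-enriched members included all copies of sets 3a, 5a and 7e. Of the 13, 9 also fell in F5, which is 9 of the 18 that fell. The same overlap was not counted over all genes.

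Set 7e was the most abundant Ovary-enriched set. TraesCS7D02G449900, on chromosome 7D from 568949472 to 568954531, was at 39.7, 46.9 and 47.9 FPKM in Ovary, 5.67 and 5.73 in Lemma and 3.78, 4.77 and 2.98 in Anther. It was higher in Ovary than in Lemma by 2.35 on the log2 scale (SE 0.20, adjusted p = 3.63e-05 by edgeR), and lower in Anther than in Ovary with a log2 change of -3.17 (SE 0.18, adjusted p = 5.18e-06 by edgeR). The A and B copies were at 20.5 to 23.0 and 30.4 to 32.9 FPKM in Ovary and at 2.29 to 7.54 in the other organs. No library of Lemma or Anther came near an Ovary library for any copy.

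A pair of low genes without a homoeolog match was also highest in Ovary. TraesCS2A02G567300 was at 1.60, 1.48 and 1.27 FPKM in Ovary, 0.0182 and 0.0126 in Lemma and 0.0228, 0.0311 and 0.108 in Anther, and was higher in Ovary than in Lemma by 5.87 (SE 0.80, adjusted p = 0.000485 by edgeR). TraesCS2D02G577800 was at 1.42, 1.12 and 0.938 FPKM in Ovary, 0.144 and 0.155 in Lemma and 0.0480, 0.128 and 0.0634 in Anther, and was higher in Ovary than in Lemma by 2.34 (SE 0.48, adjusted p = 0.00393 by edgeR). Both were lower in F5 than in F1 by mean FPKM, at 0.0319 ± 0.0552 against 0.756 ± 0.240 and 0.127 ± 0.0851 against 0.552 ± 0.218 (SD, n = 3), with adjusted p of 0.0527 and 0.0816 by edgeR. TraesCS2D02G491200 of set 2c, at 0.142 to 0.277 FPKM in Ovary, was the third low gene enriched there.

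In set 6b the contrast between Anther and Ovary was the widest among sets with all copies called. Its copies were at 7.86 to 18.9 FPKM in Ovary and at 0.0668 to 1.02 in Anther, and were lower in Anther with log2 changes of -3.99, -4.70 and -4.90. Anther replicate 3 was the highest Anther library for each copy, at 0.801 to 1.02 FPKM against 0.0668 to 0.270 in replicates 1 and 2. Set 2d was lower in Anther than in both other organs, at 1.39 to 5.52 FPKM against 7.72 to 14.5 in Lemma and 16 to 27.3 in Ovary. Histone genes were lower in Anther than in Ovary in 415 of 452 tested genes (91.8%, against 21.7% of all genes). They were higher in Ovary than in Lemma in 431 of 452 (95.4%, against 20.4% of all genes). Their part in the ARF differences was not tested.

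**Figure D3:**
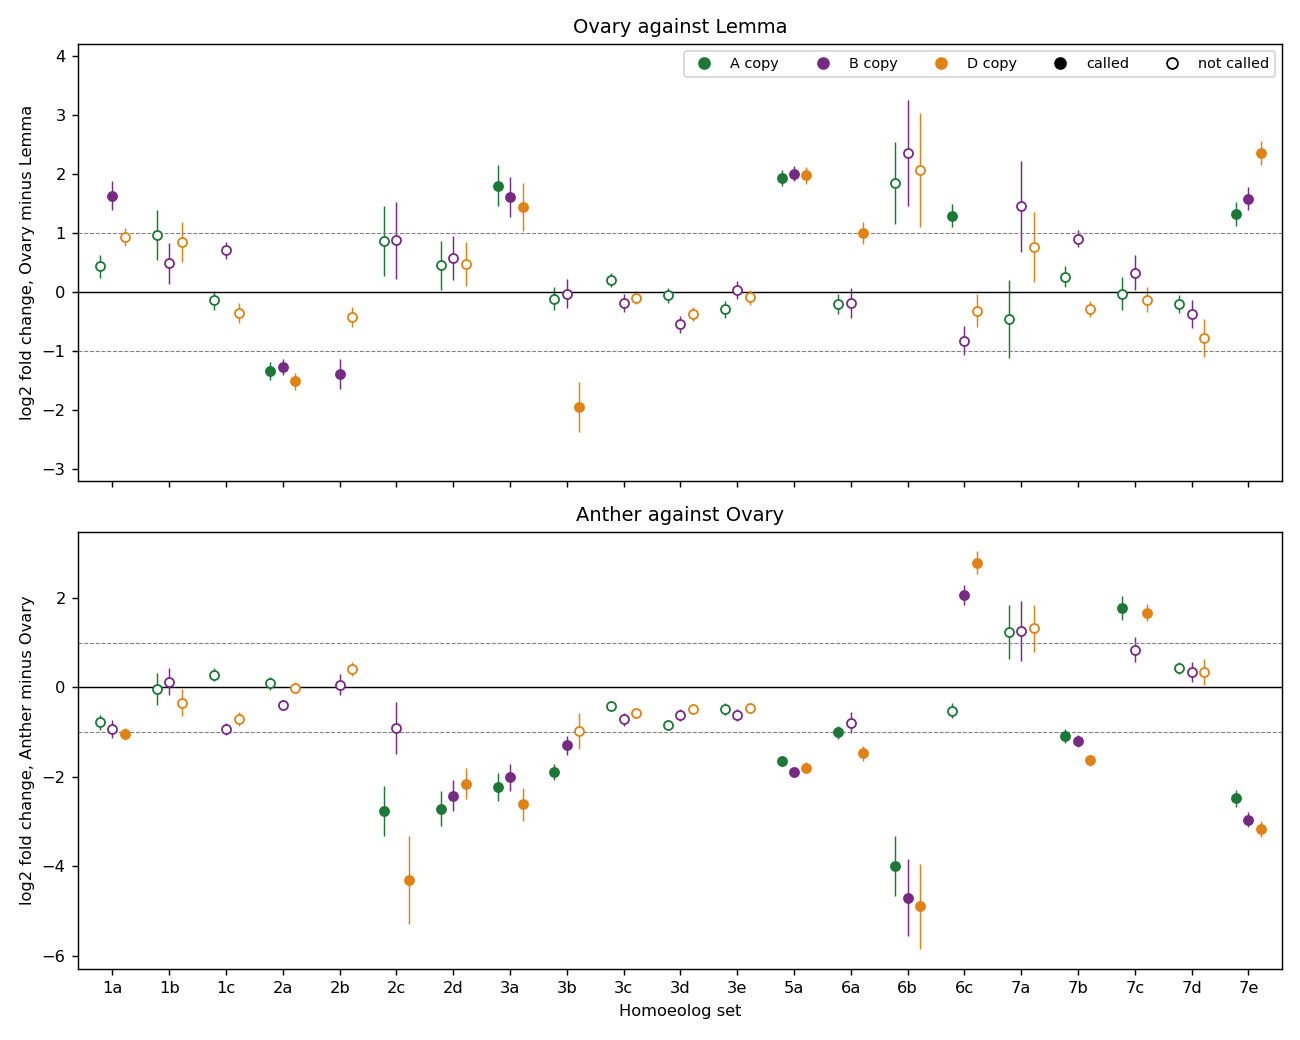
Fitted log2 fold change for each copy of the homoeolog sets, Ovary minus Lemma (upper panel) and Anther minus Ovary (lower panel), with SE as vertical lines. Filled points passed an adjusted p under 0.05 and 2-fold, and TraesCS2D02G491200 is left out of the upper panel because Lemma had 0 counts. Sets 3a, 5a and 7e are above 0 in the upper panel and below it in the lower one, and set 2a is below 0 in the upper panel.

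Set 2a was the abundant Lemma-enriched set. TraesCS2B02G326400, on chromosome 2B from 466189430 to 466195033, was at 35.8 and 28.3 FPKM in Lemma, 13.0, 12.0 and 10.8 in Anther and 20.4, 20.8 and 20.1 in Ovary. TraesCS2D02G307600 was at 35.3 and 28.0 FPKM in Lemma, 14.8, 12.2 and 12.0 in Anther and 16.4, 17.8 and 16.8 in Ovary. TraesCS2A02G309300 was at 28.6 and 20.4 FPKM in Lemma, 13.3, 12.5 and 10.8 in Anther and 14.3, 15.3 and 15.2 in Ovary. Lemma stood above both other organs for all 3 copies, with Lemma replicate 1 the highest library. The copies were lower in Ovary than in Lemma with log2 changes of -1.33, -1.27 and -1.51 (adjusted p from 6.3e-05 to 0.000203 by edgeR), and all 3 lost the call, keeping the sign, with library size alone or limma. In Anther against Lemma the B and D copies kept their calls under every alternative. In F1 and F5 the set was at 12.0 to 18.2 FPKM and had no call.

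The other Lemma-enriched members were low. TraesCS3D02G245400 of set 3b was at 0.832 and 0.543 FPKM in Lemma, 0.0580, 0.123 and 0.129 in Anther and 0.321, 0.256 and 0.235 in Ovary. TraesCS2B02G397300 of set 2b was at 1.67 and 1.03 FPKM in Lemma, 0.709, 0.638 and 0.551 in Anther and 0.831, 0.731 and 0.802 in Ovary. Lemma was above both organs in each library for both genes. The number of Lemma-enriched members was 3 without Lemma replicate 1.

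The Anther-enriched members came from sets 6c and 7c. TraesCS7A02G416400, on chromosome 7A from 608398282 to 608407279, was at 7.44, 5.99 and 4.33 FPKM in Anther, 1.90 and 1.07 in Lemma and 1.85, 2.36 and 2.55 in Ovary, and was higher in Anther than in Lemma by 1.75 (SE 0.30, adjusted p = 0.00135 by edgeR). TraesCS7D02G409700 was at 8.32, 6.81 and 6.18 FPKM in Anther, 2.54 and 1.61 in Lemma and 2.81, 3.23 and 2.66 in Ovary. The B copy, TraesCS7B02G316600, was at 9.19, 6.12 and 5.16 FPKM in Anther but also at 4.32 to 5.45 in Ovary, where its log2 change of 0.84 did not reach 2-fold. For the A and D copies every Anther library lay above every library of the other organs.

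In set 6c the copies differed in where they were highest. TraesCS6D02G212700 was at 1.75, 1.58 and 1.64 FPKM in Anther and at most 0.409 in any other library, with log2 changes of 2.47 against Lemma and 2.78 against Ovary. Its B copy, TraesCS6B02G258800, was at 3.52, 2.66 and 2.45 FPKM in Anther, 1.25 and 0.806 in Lemma and 0.811 to 0.935 in Ovary. The A copy, TraesCS6A02G222300, was instead highest in Ovary, at 2.66, 3.10 and 3.35 FPKM against 1.82, 1.62 and 1.43 in Anther.

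Set 7a reached 23.5 FPKM in an Anther library but varied strongly between replicates. TraesCS7B02G065800 was at 8.5, 12.9 and 23.5 FPKM in Anther and at 13.6, 8.74 and 1.93 in Ovary. TraesCS7A02G160800 was at 9.02, 11.0 and 21.5 FPKM in Anther and at 12.8, 7.27 and 2.42 in Ovary. For all 3 copies Anther replicate 3 was the highest and Ovary replicate 3 the lowest library of its group, and Anther and Ovary overlapped. The B and D copies were called higher in Anther than in Lemma, by 2.70 and 2.08, and both lost the call without Anther replicate 3 or either Lemma library. Set 1b showed the same order in Ovary, where TraesCS1A02G334900 was at 8.64, 6.61 and 3.06 FPKM.

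Auxin pathway genes in the organs did not share 1 direction. Of 21 tested GH3 genes 14 were higher and 4 lower in Anther than in Lemma (85.7% called, against 51.9% of all genes), and their summed counts were 839 to 931 CPM in Anther against 44.9 to 54.8 in Lemma and 60.7 to 124 in Ovary. Of 70 Aux/IAA genes 12 were higher and 24 lower in Anther than in Lemma (51.4% called). In Ovary against Lemma 11 of them were higher and 20 lower (44.3% called, against 42.7% of all genes). Both total shares were near those of all genes. By direction, 17.1% were higher and 34.3% lower in Anther than in Lemma, against 25.2% and 26.7% of all genes. In Ovary against Lemma the shares were 15.7% and 28.6%, against 20.4% and 22.4%. In Anther against Ovary, however, 19 were higher and 31 lower (71.4% called, against 43.5% of all genes), by direction 27.1% against 21.9% and 44.3% against 21.7%. There, 13 of 21 GH3 genes were higher and 4 lower (81% called). For efflux carriers, 8 of 29 were higher and 15 lower (79.3% called). Of 17 receptor genes, 6 were higher and 3 lower in Ovary than in Lemma (52.9% called), and 0 were higher and 5 lower in Anther than in Ovary (29.4% called, against 43.5% of all genes).

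**Figure D4:**
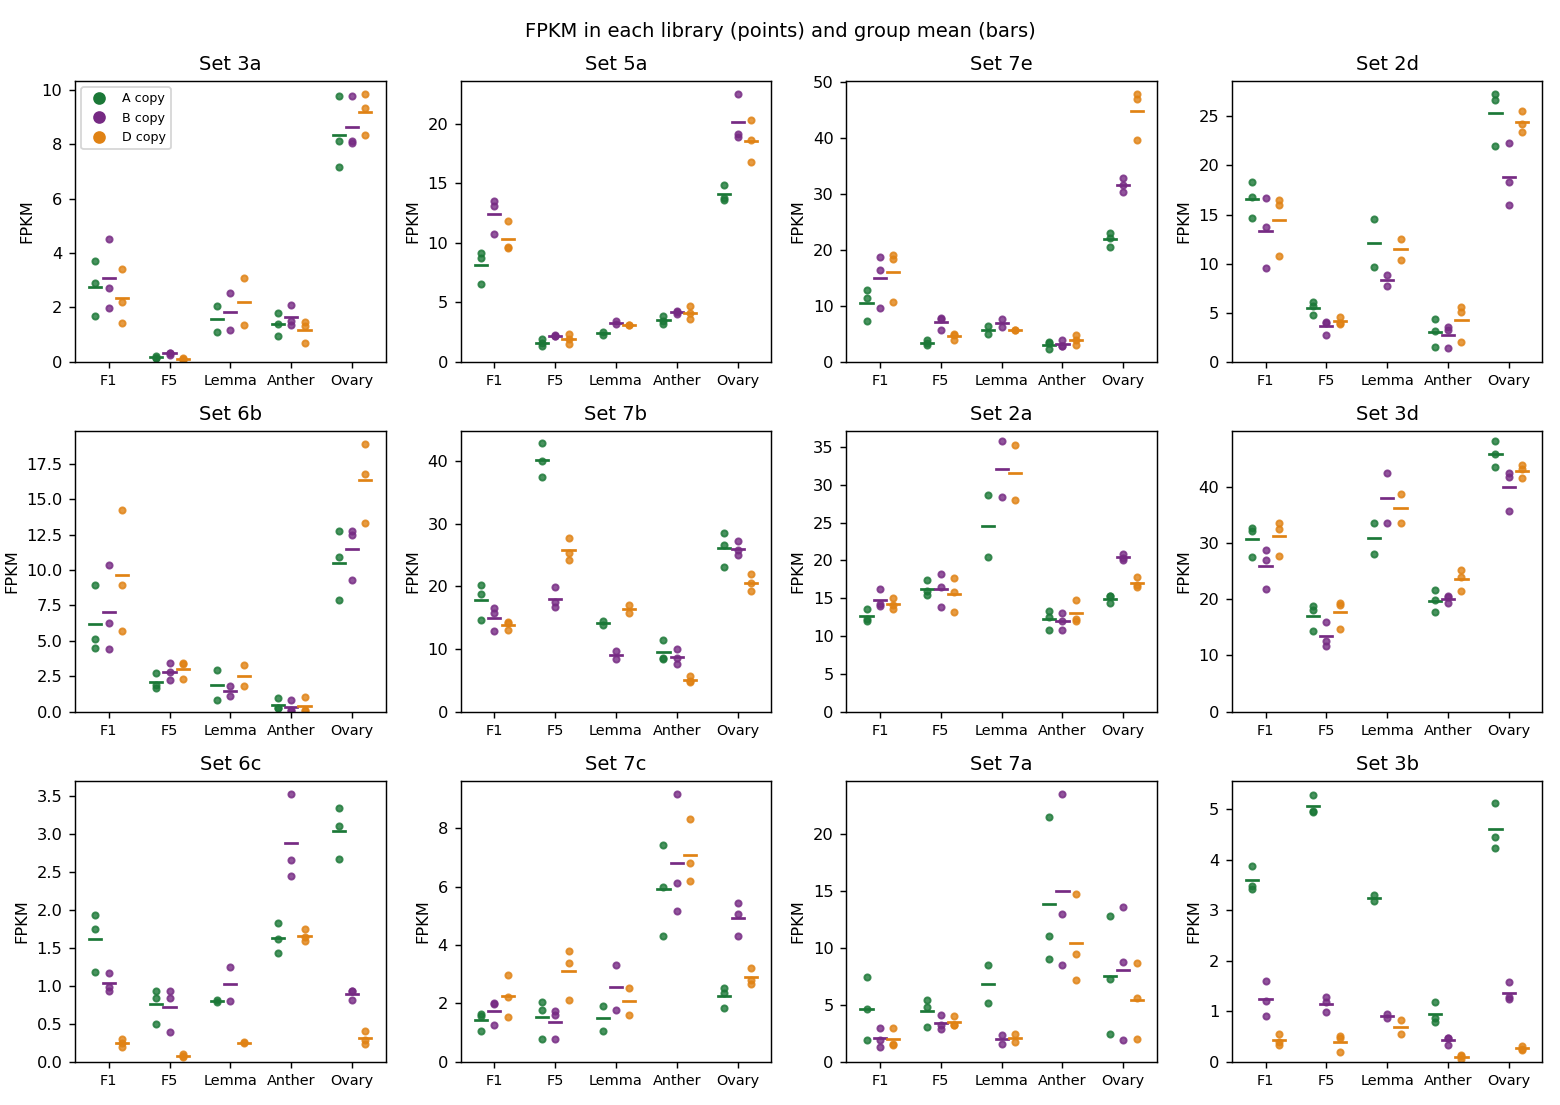
FPKM of the A, B and D copies (colours) of 12 homoeolog sets in each library (points), with group means as bars. Sets 3a, 5a, 7e and 2d are highest in Ovary and lower in F5 than in F1, set 7b is highest in F5 for its A and D copies, set 2a in Lemma and set 7c in Anther.

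Copies of a set mostly shared their highest group and their direction of change from F1 to F5. All 3 copies had their highest mean FPKM in the same group in 14 of 20 sets, which were 11 sets for Ovary, 2 for Anther and 1 for Lemma. From F1 to F5 the fitted changes of all 3 copies had the same sign in 16 of 20 sets, 4 sets had all copies called lower, 8 had some copies called and 8 had none. In none of the 4 comparisons were copies of a set called in opposite directions. Most members were highest in Ovary, so some agreement on that group could be found between unrelated members too. The same counts were not made for unrelated members, so how far copies agree beyond them was not tested. How reads that match more than 1 copy were counted is not known, and its part in the agreement was not tested. By subgenome, 2 A, 0 B and 3 D copies rose in F5, and 8 A, 4 B and 6 D copies fell.

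Levels nevertheless differed between copies. Over the 36 copy pairs that rank along the chromosome alone could match, 25 differed in level at an adjusted p under 0.05 (exact two-sided sign-flip permutation test over the 14 libraries on log2(FPKM + 0.1), Benjamini-Hochberg over 36 pairs), and 8 of these differed over 2-fold. Neighbouring genes, a matching added after the data were seen, gave 58 pairs, of which 41 differed and 9 did so over 2-fold. In 16 of the 58 pairs one copy was higher in every library. The libraries come from different organs, so the test asks about the mean over this set of samples. It flips each of the 14 libraries separately, although replicates of a group share a tissue and are not independent for this question. The p-values may therefore be too small and the counts of differing pairs too high. Group means were not tested. No subgenome led throughout: by median share of the set's FPKM the highest copy was A in 7 sets, B in 7 and D in 6, and in 15 of 20 sets every copy held between 20% and 50%.

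The most uneven set with 3 copies was 3b. TraesCS3A02G246000 held a median of 71.3% of the set's FPKM, its B copy TraesCS3B02G273400 21.2% and its D copy TraesCS3D02G245400 7.12%, in the same order in all 14 libraries. The A copy exceeded the D copy by 2.94 on the log2 scale (SD 0.68 over 14 libraries, exact permutation adjusted p = 0.000443). This smallest adjusted value is shared by all 16 of the 58 pairs in which one copy was higher in every library. The A copy was at 3.43 to 3.88 FPKM in F1, 4.94 to 5.30 in F5, 3.19 and 3.29 in Lemma, 4.24 to 5.13 in Ovary and 0.785 to 1.18 in Anther. In the 2-copy set 2b, D copy TraesCS2D02G376600 held a median of 73.2% and was the higher copy in all 14 libraries. In set 1b the D copy TraesCS1D02G337400 held a median of 17%.

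In set 6c the leading copy changed with the organ. The A copy made up 71.5% ± 3.13 of the set's FPKM in Ovary (SD, n = 3) but 26.4% ± 1.03 in Anther, and the D copy 27.1% ± 2.55 in Anther against 5.99% to 12.2% by group mean elsewhere. In set 7b the A copy held 47.8% ± 0.443 in F5 and 38.1% ± 1.80 in F1 (SD, n = 3). These shares follow from the levels given above and were not tested between groups.

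**Figure D5:**
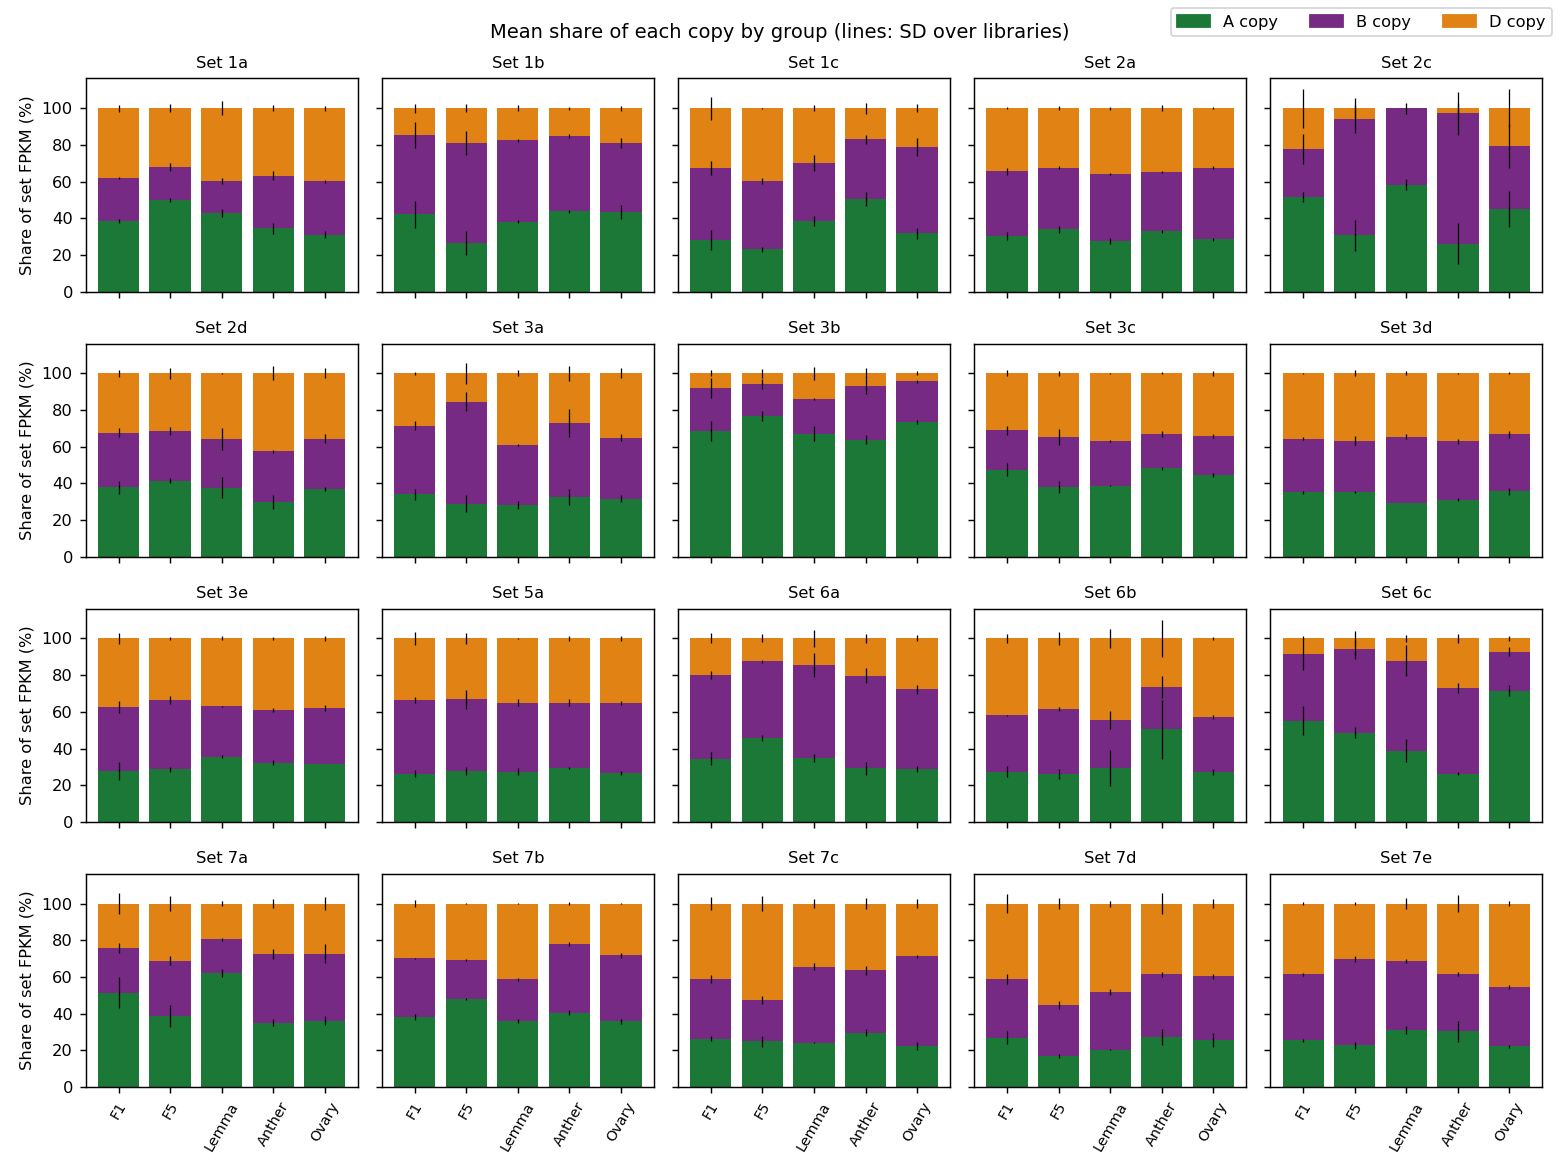
Mean share of each copy in the summed FPKM of its set, in percent, for the 20 sets with 3 copies and the 5 groups, stacked with SDs over libraries as lines. In 15 of the 20 sets every copy has a median share of 20% to 50%, set 3b is led by its A copy in every group, and in set 6c the A copy leads in Ovary and the B copy in Anther.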

How the data were processed

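Per the labels' protocols, RNA was extracted from wheat florets and floret organs for bulk RNA-seq. The authors deposited, for 14 libraries and 100591 genes, raw counts per gene and FPKM values. The submitters' processing notes name Bowtie 0.12.2 and the build mm8, a mouse build that cannot hold wheat genes, so no source used here gives the aligner or the wheat build. How the counts were assigned affects homoeologs in particular.

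Members and lists were chosen with earlier results of these data known. Deposited counts were scaled by TMM, filtered with filterByExpr and fitted in edgeR 4.0.16 (R 4.3.3) by a robust quasi-likelihood test on all genes, F1 with F5 in one fit and the 3 organs in another. Lemma, with 2 libraries, shared the organs' estimate of the spread. Calls needed a Benjamini-Hochberg adjusted p under 0.05 over all genes tested and 2-fold, two-sided. The SE was taken from the log2 fold change and its F statistic. Copies were compared with FPKM, where a pair needed 0.5 FPKM in its higher copy. Copies were matched by reciprocal best sharing of annotations among 20 genes on each side, with at least 3 shared, and the 36 pairs that rank alone gave were all matched the same way.

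Genes named in full are the 6 largest falls and up to 6 largest rises in F5, the 3 highest members, up to 4 enriched per organ and the 4 sets with the most unequal copies, with their copies. The planned grouping by numbered rice ARFs could not be applied. Alternatives were median-of-ratios scaling, no filter, limma 3.58.1 on log2(FPKM + 1) or + 0.1, the DESeq2 1.42.0 Wald test, a replicate block, leaving out each library and, added after the data were seen, library size alone and copies matched by neighbours. The fits were first tested on simulated data. Within groups, libraries differed by more than sampling noise (chi-square per degree of freedom 15.5 to 106), and each was counted as a separate sample.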

Additional observations from a re-analysis of the deposited data

How the results depend on the processing

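The total counts of ARF genes called in F5 against F1, Ovary against Lemma and Anther against Ovary, and of organ-enriched members summed over organs, stayed within 1.5 times of those reported under every alternative tried. Single directions and organs moved more. Higher and lower calls of Ovary against Lemma went from 15 and 5 to 22 and 0 with limma on log2(FPKM + 1). They went to 29 and 1 on log2(FPKM + 0.1) or with library size alone. Over all genes tested these calls went from 15550 and 17069 to 14863 and 9020, 25810 and 13731, and 26767 and 13089. Under these 3 alternatives Ovary-enriched members went from 13 to 20, 25 and 24, and Lemma-enriched members from 5 to 0, 1 and 1. Anther against Lemma gave 14 calls with limma on log2(FPKM + 1) in place of 30. The median log2 change of the members from F1 to F5 was -0.27 with limma on log2(FPKM + 1) and -0.71 with library size alone, in place of -0.42. Over all genes tested the median moved as well, to -0.15 and -0.36 in place of -0.05. Copies matched by neighbouring genes gave 41 differing pairs of 58 in place of 25 of 36, more pairs being tested. Apart from the last, the cause was not tested. Leaving out 1 library at a time gave 19 to 23 calls for F5 against F1, 23 to 29 for Anther against Lemma, 19 to 24 for Ovary against Lemma, 31 to 33 for Anther against Ovary, 21 to 26 organ-enriched members, medians of -0.49 to -0.22 and 24 to 26 differing pairs. Where this left Lemma with 1 library, that library was assumed to vary like the other groups.

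Of the calls reported, 12 of 18 falls and 1 of 5 rises in F5 held under every alternative. For Anther against Lemma 7 of 23 lower and 3 of 7 higher calls did, for Ovary against Lemma 11 of 15 higher and 0 of 5 lower, and for Anther against Ovary 21 of 29 lower and 4 of 4 higher. Of all these calls, TraesCS7A02G475600 in Anther against Lemma alone did not keep its sign throughout, since it had 0 counts in Anther and in Lemma replicate 1 and so no change without Lemma replicate 3. The replicate numbers did not pair the samples: the deviations of same-numbered F1 and F5 libraries correlated at 0.0155, 0.0531 and -0.182. With a replicate block, 21 members were called in F5 against F1, 22 in Anther against Lemma, 18 in Ovary against Lemma and 31 in Anther against Ovary, and 20 were organ-enriched. Depth limits mainly the 9 members under 1 FPKM by the mean over the group means.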
